A study of Mus musculus with 13 samples.

Results

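The binding of BLIMP1 was compared between 2 mouse cell types, day 6 primordial germ cell-like cells (d6 PGCLC) and photoreceptor precursors of the newborn retina, with 2 ChIP-seq libraries each. These are 4 of the 12 ChIP libraries of the series, which cover 6 cell types. A summit is the position of highest enrichment in a called peak. Where summits of the 4 libraries followed each other within 200 bp they were joined, which gave 91613 regions. Binding in a cell type required a summit of each of its replicates. By this rule 1936 regions were bound in both cell types, 8213 in d6 PGCLC with no photoreceptor summit, and 4286 in photoreceptor precursors with no d6 summit. Of 21887 protein-coding genes, 976 had a summit of all 4 libraries within 1 kb of a gene end (bound in both). A further 717 were bound in d6 PGCLC with no photoreceptor summit within 5 kb (d6 only), and 184 in photoreceptor precursors with no d6 summit within 5 kb (photoreceptor only).

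All 4 libraries came from C57BL/6 cells homozygous for an EGFP knock-in at the N terminus of BLIMP1, and chromatin was precipitated with the GFP antibody ab290. For d6 PGCLC, embryonic stem cells with the knock-in were turned into epiblast-like cells over 36 h, grown as floating aggregates with LIF, BMP4, BMP8a, SCF and EGF for 6 days, and sorted for SSEA1 and INTEGRINβ-3. Replicate 1 used 300000 and replicate 2 used 1000000 cells. Photoreceptor precursors were GFP-positive cells sorted from trypsin-dissociated retinas at postnatal day 4, with 880000 and 920000 cells. The germ cell-like cells are thus a culture model, and the retinal cells are defined by the tag itself. Whether the replicates were independent cultures or animals is not labelled, so any p-value measures the spread between these libraries. Summit lists hold no expression, so the cell types could not be checked by marker genes.

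BLIMP1, the product of the gene Prdm1, mostly represses transcription through its zinc fingers and binds a GAAAG-containing sequence which overlaps the sites of interferon regulatory factors. In the postmitotic retina it acts in cells that choose between the photoreceptor and the bipolar fate, where the homeodomain factors OTX2 and CRX drive photoreceptor genes. In the germline it acts at the specification of primordial germ cells, where somatic genes are silenced. Notch signalling, in which ligands such as DLL1 release the receptor's intracellular domain to act with RBPJ on HES and HEY genes, keeps retinal progenitors undifferentiated.

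The promoters of 7 genes show how the summits of the 4 libraries lay on the DNA. They are RefSeq promoter sequences of build GRCm38.p6, which has the coordinates of mm10, each from 250 bases before to 50 bases after an annotated start, on the strand of the gene. They were chosen after their values were seen. Capitals mark GAAAG or its complement CTTTC, the core of the BLIMP1 sequence, and TAATCC or its complement GGATTA, the core of the CRX and OTX2 sequence. In photoreceptor precursors alone, both libraries had a summit in the promoters of Samd7 (chr3:30746043-30746342, plus strand), a repressor of non-photoreceptor genes in rods, Rbp3 (chr14:33953753-33954052, plus strand), the retinoid-binding protein between the photoreceptors and the pigment epithelium, and Prph2 (chr17:46910228-46910527, plus strand), a structural protein of outer segment discs. The summits lay 139 and 88 bases before the start of Samd7 (replicates 1 and 2), 118 and 14 before that of Rbp3, and 82 and 81 before that of Prph2.
Samd7: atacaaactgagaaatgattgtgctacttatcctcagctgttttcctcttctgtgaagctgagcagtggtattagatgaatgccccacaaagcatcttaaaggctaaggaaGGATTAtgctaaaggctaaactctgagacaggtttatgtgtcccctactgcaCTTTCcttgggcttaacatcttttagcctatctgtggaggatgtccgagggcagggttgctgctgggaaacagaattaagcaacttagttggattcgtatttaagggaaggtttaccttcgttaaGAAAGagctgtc
Rbp3: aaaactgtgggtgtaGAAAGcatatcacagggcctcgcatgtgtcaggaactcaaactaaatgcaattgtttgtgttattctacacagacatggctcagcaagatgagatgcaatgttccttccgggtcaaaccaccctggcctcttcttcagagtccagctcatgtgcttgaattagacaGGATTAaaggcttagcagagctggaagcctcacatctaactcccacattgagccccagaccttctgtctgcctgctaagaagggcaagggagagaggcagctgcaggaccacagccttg
Prph2: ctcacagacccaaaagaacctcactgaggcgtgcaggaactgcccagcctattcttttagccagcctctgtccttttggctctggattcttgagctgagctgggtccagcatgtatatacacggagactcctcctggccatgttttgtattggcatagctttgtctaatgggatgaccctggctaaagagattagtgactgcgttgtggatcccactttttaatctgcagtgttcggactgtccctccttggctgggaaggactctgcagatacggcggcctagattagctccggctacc

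In d6 PGCLC alone, both libraries had a summit in the promoters of the Notch ligand Dll1 (chr17:15376883-15377182, minus strand), 52 and 104 bases before the start, and of the homeodomain regulator Six4 (chr12:73113376-73113675, minus strand), 183 and 83 bases before the start of the transcript shown, which is not the outermost end of the gene.
Dll1: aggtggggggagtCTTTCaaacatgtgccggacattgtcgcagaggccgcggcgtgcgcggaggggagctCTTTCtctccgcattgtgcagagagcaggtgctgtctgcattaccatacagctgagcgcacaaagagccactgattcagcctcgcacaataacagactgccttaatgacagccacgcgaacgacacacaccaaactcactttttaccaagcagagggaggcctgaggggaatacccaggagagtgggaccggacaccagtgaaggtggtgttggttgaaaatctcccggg
Six4: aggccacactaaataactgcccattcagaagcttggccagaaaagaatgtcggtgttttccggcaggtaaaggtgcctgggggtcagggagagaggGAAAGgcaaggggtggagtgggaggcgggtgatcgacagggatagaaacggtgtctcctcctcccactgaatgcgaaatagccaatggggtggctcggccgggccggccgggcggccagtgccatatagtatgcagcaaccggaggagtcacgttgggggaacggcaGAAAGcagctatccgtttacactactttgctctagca

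All 4 libraries had a summit in the promoters of Foxd1 (chr13:98353995-98354294, plus strand), a forkhead regulator of the ventral forebrain, retina and kidney stroma, and of Psmb3 (chr11:97703184-97703483, plus strand), a proteasome subunit. The d6 summits of Foxd1 lay 102 and 170 bases before the start and the photoreceptor summits 155 and 92. Those of Psmb3 lay 188 and 231 bases before the start in d6 PGCLC and 123 and 166 in photoreceptor precursors.
Foxd1: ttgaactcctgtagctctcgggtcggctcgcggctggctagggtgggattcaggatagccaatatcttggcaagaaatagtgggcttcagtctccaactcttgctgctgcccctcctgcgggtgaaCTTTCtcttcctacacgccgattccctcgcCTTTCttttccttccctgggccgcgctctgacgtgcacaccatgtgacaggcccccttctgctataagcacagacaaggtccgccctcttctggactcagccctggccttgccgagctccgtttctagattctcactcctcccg
Psmb3: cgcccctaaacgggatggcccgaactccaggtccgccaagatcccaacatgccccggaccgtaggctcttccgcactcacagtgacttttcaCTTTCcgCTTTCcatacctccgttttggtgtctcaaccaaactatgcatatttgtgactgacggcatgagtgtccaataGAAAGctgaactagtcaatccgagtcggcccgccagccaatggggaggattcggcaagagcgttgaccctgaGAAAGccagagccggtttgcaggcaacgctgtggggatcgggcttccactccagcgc
The cell types overlapped in position at Foxd1, and at Psmb3 the d6 summits lay farther from the start. The Samd7 and Rbp3 promoters each held 1 TAATCC match beside GAAAG, Prph2 held no match of either kind, and the other 4 promoters held GAAAG matches without TAATCC.

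The 4 lists differed in length. The d6 lists held 76185 summits (replicate 1) and 15411 (replicate 2), and the photoreceptor lists held 10861 and 13955. Read depth is not known, so a longer list cannot be told apart from deeper sequencing or a looser threshold. Of the photoreceptor summits, 35.9% and 33.0% lay within 200 bp of a summit of the long d6 list, and 22.2% and 18.8% within 200 bp of the other. Of the summits of d6 replicate 2, 15.7% and 17.1% lay within 200 bp of the photoreceptor lists and 70.1% within 200 bp of d6 replicate 1. The long list therefore sets how many genes count as photoreceptor only, and values without it stand beside the results that rest on it.

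Photoreceptor summits lay near gene ends more often than d6 summits. In d6 PGCLC, 13.2% and 15.7% of summits were within 1 kb of an end of a protein-coding gene. In photoreceptor precursors the shares were 24.2% and 23.4%. The groups did not overlap, with means of 14.5% ± 1.72 and 23.8% ± 0.57 (SD, n = 2 each). The difference of 9.3 percentage points gave p = 0.333 in a two-sided exact permutation test, the smallest value that 2 libraries against 2 allow.

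Regions bound in both cell types lay closer to genes than the d6-only and the photoreceptor-only regions. Of the 1936 shared regions (2.11% of all), 33.4% were within 1 kb of a gene end (95% Clopper-Pearson interval 31.3 to 35.5, as for all intervals here, which cover counting error only). This compares with 9.23% (8.61 to 9.88) of the 8213 d6-only regions (8.96% of all) and 12.7% (11.8 to 13.8) of the 4286 photoreceptor-only regions (4.68% of all). Of all regions, 14% lay that near to a gene end. The photoreceptor-only regions were the most remote of the 3 classes, 35.7% lying over 50 kb from any gene end against 27.9% of d6-only and 20.1% of shared regions. The share of all regions was 26.4%, near that of the d6-only regions. Joining summits at most 200 bp apart keeps those of a shared region close by construction. Within shared regions the median distance was 38 bp between the d6 replicates, 31 bp between the photoreceptor replicates and 44 to 49 bp between cell types, over 1900 regions. A further 1516 regions were bound in photoreceptor precursors with a summit of 1 d6 library. In 1343 of them that library was d6 replicate 1. These regions lay nearer still to genes than the shared ones, with 38.9% (36.4 to 41.4) within 1 kb of an end and a median distance of 3540 bp against 5746 bp.

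**Figure D1:**
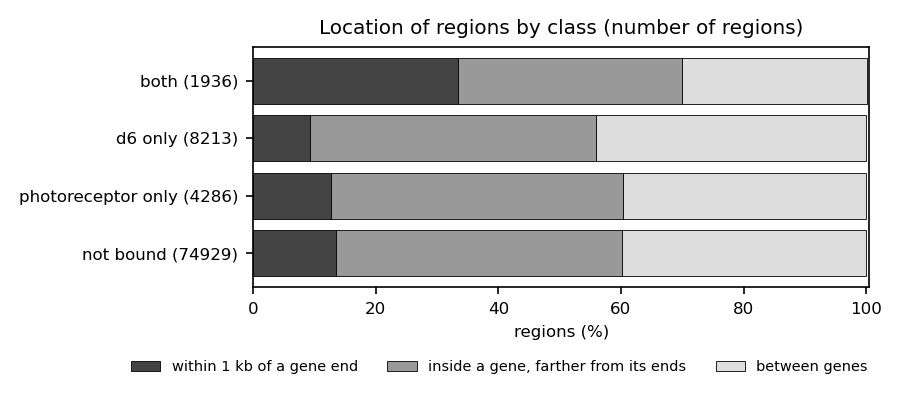
Share of regions (%, x axis) within 1 kb of a gene end, inside a gene farther from its ends, or between genes, for regions bound in both cell types, in d6 PGCLC only, in photoreceptor precursors only and in neither. The dark part is widest, at 33.4%, for the regions bound in both.

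Nearly equal numbers of genes were bound in the 2 cell types, 2128 in d6 PGCLC (9.72% of all protein-coding genes) and 2118 in photoreceptor precursors (9.68%). The 976 genes bound in both are 4.46% of all genes, 45.9% of the d6-bound and 46.1% of the photoreceptor-bound genes. In 734 of the 976 a single region held the summits of all 4 libraries. The d6-only genes are 3.28% and the photoreceptor-only genes 0.841% of all genes. Between these classes, 435 genes were bound in d6 PGCLC with a photoreceptor summit within 5 kb (1.99%), and 958 were bound in photoreceptor precursors with a d6 summit within 5 kb (4.38%). In 760 of the 958, d6 replicate 1 was the only d6 library that near. Without that library 944 genes counted as photoreceptor only. Summits shared with a neighbouring gene were sought in 1 library per class, d6 replicate 1 for d6 only and photoreceptor replicate 1 for the others. In the class bound in both, 30.0% of genes had the nearest summit of that library also within 1 kb of an end of another gene. So had 19.5% of d6-only and 19.6% of photoreceptor-only genes, and for these the gene bound cannot be told apart from its neighbour. At the thresholds, Fam174c counted as d6-bound with the farther summit at 996 bp and Rwdd2b did not at 1001 bp. Elac1 counted as photoreceptor-bound at 996 bp and Qrfp did not at 1004 bp. Podxl, with a photoreceptor summit at 5200 bp, was d6 only and Ptger2, with one at 4976 bp, was not. Mak, with a d6 summit at 5037 bp, was photoreceptor only and Lsm14a, with one at 4958 bp, was not.

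Neural and Notch genes were photoreceptor only more often than d6 only, and the reverse held for other developmental genes, by shares that depend on the d6 libraries. Of 279 neural and Notch genes, 17 (6.09%) were photoreceptor only against 0.841% of all genes, 6 (2.15%) were d6 only against 3.28%, and 22 (7.89%) were bound in both against 4.46%. The 17 were 9 photoreceptor and bipolar effectors, 4 retinal and neural transcription factors and 4 neuronal and synaptic genes. None was among the 60 Notch pathway genes, of which 1 was d6 only. Of 356 other developmental genes, 1 (0.281%) was photoreceptor only, 26 (7.30%) were d6 only and 23 (6.46%) were bound in both. Of 411 housekeeping genes, 7 (1.7%) were photoreceptor only, 14 (3.41%) d6 only and 28 (6.81%) bound in both. Without d6 replicate 1 the photoreceptor-only share rose to 15.8% of the neural and Notch, 3.93% of the other developmental and 10.7% of the housekeeping genes, against 4.31% of all genes. With d6 replicate 1 as the only d6 library, 17.9% of the neural and Notch genes, 40.7% of the other developmental, 22.1% of the housekeeping and 19.5% of all genes were d6 only. The photoreceptor-only shares were then 6.09%, 0.281%, 1.95% and 0.864%. In that setting more neural and Notch genes were thus d6 only than photoreceptor only, while their photoreceptor-only share stayed above that of all genes. Summits of the other cell type farther out or inside the gene also count: barring them within 10 kb left 9 photoreceptor-only and 4 d6-only neural and Notch genes, and barring them inside the gene left 8 and 4.

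**Figure D2:**
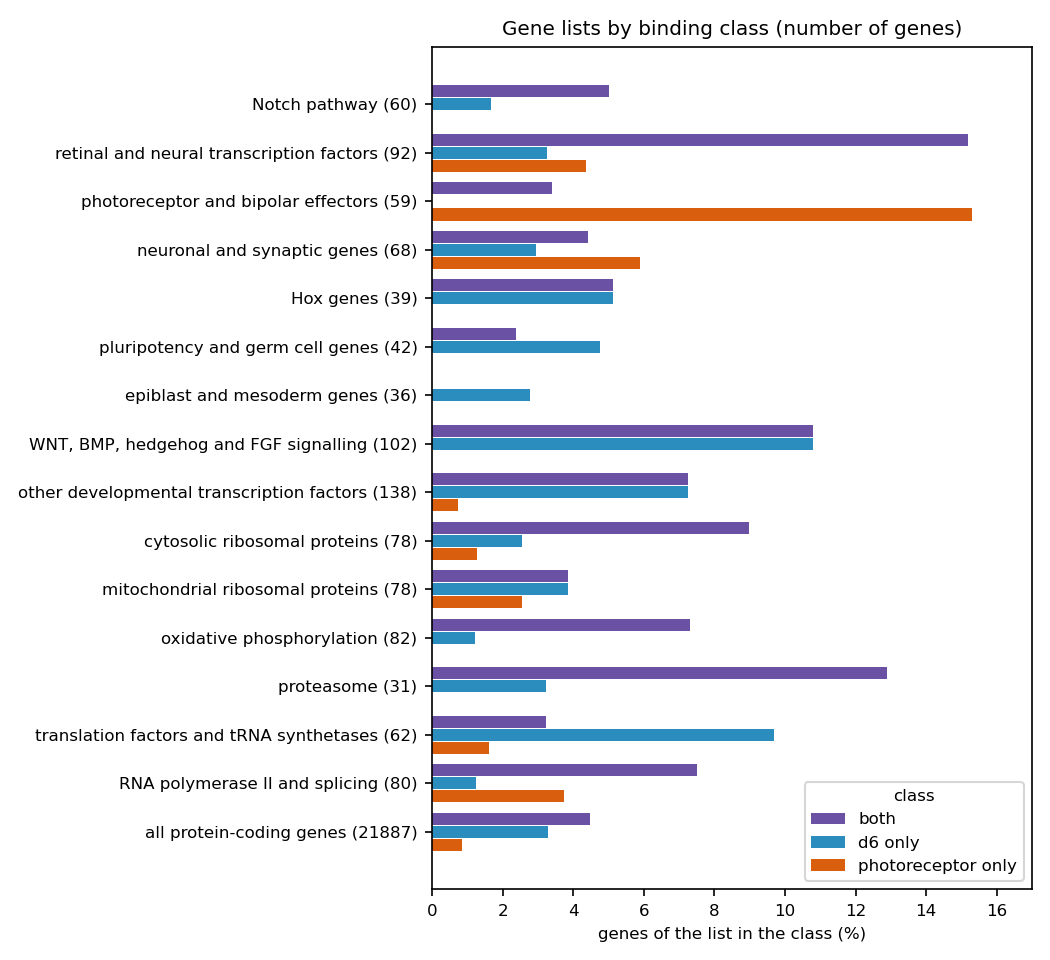
Share of the genes of each list (%, x axis) that were bound in both cell types, in d6 PGCLC only or in photoreceptor precursors only, with the number of genes in parentheses and all protein-coding genes in the lowest row. The longest photoreceptor-only bar, 15.3%, belongs to the photoreceptor and bipolar effectors. Several lists, among them the signalling, Notch and proteasome lists, hold no photoreceptor-only gene, a class with 0.841% of all genes.

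Photoreceptor and bipolar cell effectors, the proteins of phototransduction, outer segments and bipolar synapses, were bound more often in photoreceptor precursors than in d6 PGCLC. Of 59 such genes, 19 (32.2%) were bound in photoreceptor precursors and 2 (3.39%) in d6 PGCLC, against 9.68% and 9.72% of all genes. A high photoreceptor-bound share was not particular to effectors. In the housekeeping lists it ran from 12.8% (mitochondrial ribosomal proteins) to 32.3% (proteasome), with d6-bound shares of 10.3% and 19.4% in these lists. Of the 59, 9 (15.3%) were photoreceptor only, none was d6 only, and Aipl1 and Grm6 were bound in both. The 9 became 3 (5.08%, against 0.571% of all genes) with no d6 summit within 10 kb, and 5 (8.47%, against 0.553%) with none within 5 kb or inside the gene. Abca4 held 11 and 3 d6 summits inside the gene (replicates 1 and 2), Slc24a1 4 and 1, Cngb3 2 and 1, and Mpp4 1 and 0. Prph2 (chr17:46910478-46924933) had photoreceptor summits 82 and 81 bp from a gene end, and the nearest d6 summits at 6431 and 13658 bp. Rbp3 (chr14:33954003-33964219) had them at 118 and 14 bp, and d6 summits at 9499 and 116344 bp. Each had 3 photoreceptor-only regions within 5 kb, as had Samd7. Distances of these sizes follow from the class, which requires every photoreceptor summit under and every d6 summit over a fixed distance. Grk1, the rhodopsin kinase, had photoreceptor summits at 250 and 290 bp and d6 summits at 10053 and 129281 bp. Gnb3, the G-protein subunit of cones and ON bipolar cells, had them at 69 and 120 bp and d6 summits at 5251 and 5221 bp. It therefore lay close to the 5 kb limit, unlike the cone channel subunit gene Cngb3, with photoreceptor summits at 147 and 54 bp and d6 summits at 31030 and 68884 bp. Abca4, the retinoid flippase, Slc24a1, the rod cation exchanger, Mpp4, a scaffold of photoreceptor synapses, and Cabp5, a calcium-binding protein of bipolar cells, had photoreceptor summits between 54 and 546 bp. Their nearest d6 summits were between 5754 bp (Slc24a1) and 189458 bp (Cabp5).

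A further 8 effectors were photoreceptor-bound with a d6 summit within 5 kb, in 7 of them of d6 replicate 1 alone. The rod phosphodiesterase subunit gene Pde6b was the exception, with photoreceptor summits at 434 and 323 bp and d6 summits at 2612 and 2730 bp. Rom1, the partner of Prph2 in disc rims, had photoreceptor summits at 90 and 26 bp, a d6 replicate 1 summit at 20 bp, and none of replicate 2 within 24669 bp. Its d6 replicates thus fell on opposite sides of the limit. Without d6 replicate 1, 16 of the 59 effectors (27.1%) were photoreceptor only, against 4.31% of all genes.

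Among retinal and neural transcription factors, 4 of 92 (4.35%) were photoreceptor only, 3 (3.26%) d6 only and 14 (15.2%) bound in both, against 0.841%, 3.28% and 4.46% of all genes. With no summit of the other cell type within 10 kb, 2 photoreceptor-only and 1 d6-only factors were left, and with none inside the gene 2 and 3. Without d6 replicate 1, 13 (14.1%) were photoreceptor only, and without d6 replicate 2, 19 (20.7%) were d6 only, against 4.31% and 19.5% of all genes. The photoreceptor-only genes were Neurod1, a proneural factor needed for cone identity and rod survival, Rorb, the nuclear receptor upstream of Nrl in rods, Samd7 and its relative Samd11. Neurod1 (chr2:79452637-79456636) had photoreceptor summits at 330 and 329 bp and d6 summits at 7636 and 7639 bp. Rorb (chr19:18930609-19111196) had photoreceptor summits at 233 and 285 bp and d6 summits at 28320 and 68793 bp from an end, with 5 and 1 d6 summits inside the gene. The d6 replicates therefore placed a summit at the same distance from Neurod1 but not from Rorb. Crx, the photoreceptor homeodomain factor, had photoreceptor summits at 34 and 92 bp, but d6 replicate 1 at 1638 bp kept it out of the class. The d6 replicate 2 summit nearest to Crx was 172686 bp away. Nrl, the rod-determining factor, was bound in neither by the rule, with photoreceptor summits at 1895 and 22 bp and d6 summits at 15433 and 26573 bp. Otx2 had photoreceptor summits at 2210 and 539 bp and d6 summits at 1267 and 1322 bp, and Nr2e3, the repressor of cone genes in rods, had them at 1338 and 1282 bp and at 901 and 1338 bp. Neither was bound.

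The 14 factors bound in both included Rxrg, Casz1, Insm1, Sall3, Six3, Meis1, Mitf, Nfib, Nfix, Neurod2, Pou3f3, Zic1 and Tcf12. Nfib, a nuclear factor I protein of late retinal progenitors, had d6 summits at 155 and 179 bp and photoreceptor summits at 152 and 184 bp. The cell types overlapped in position there. The d6-only factors were Sox2, Id3 and the hair cell and ganglion cell factor gene Pou4f3. Sox2, which acts in pluripotent, germ and neural progenitor cells, had d6 summits at 81 and 164 bp and photoreceptor summits at 9152 and 9163 bp. Id3, an inhibitor of basic helix-loop-helix factors and a BMP target, had d6 summits at 104 and 474 bp and photoreceptor summits at 8494 and 8532 bp.

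Of 60 Notch pathway genes, 9 (15%) were bound in each cell type, against 9.72% (d6) and 9.68% (photoreceptor) of all genes. Of these, 3 (5%, against 4.46%) were bound in both, 1 (1.67%, against 3.28%) was d6 only and none was photoreceptor only (against 0.841%). The 3 bound in both were Adam10, the protease that cleaves the receptor, Tle1, a co-repressor of HES proteins, and the target Hey1. Hey1 had d6 summits at 209 and 698 bp and photoreceptor summits at 118 and 98 bp, in 1 shared region. The d6-only gene was Rbpj, the DNA-binding effector of the pathway (chr5:53555779-53657445), with d6 summits at 61 and 75 bp and photoreceptor summits at 33077 and 34216 bp. Those photoreceptor summits lay inside the gene, which held 3 and 1 of them, so no Notch gene was d6 only when summits inside the gene were barred. The d6-bound genes with a photoreceptor summit within 5 kb were Dll1, Hes1, Spen, Tle3 and Tle4. Dll1 had d6 summits at 52 and 104 bp and photoreceptor summits at 1451 and 1226 bp, so both cell types had summits near it at different positions. Hes1, the main repressor target, had d6 summits at 120 and 397 bp and photoreceptor summits at 1305 and 77695 bp. The photoreceptor-bound genes with a d6 summit within 5 kb were Hes6, which opposes HES1, Numbl, Adam17, Dtx4, Maml2 and Maml3. Hes6 had photoreceptor summits at 241 and 253 bp and d6 summits at 222 and 5545 bp. In 4 of these 6 genes the near d6 summit came from replicate 1 alone, and without it 4 of the 60 Notch genes (6.67%, against 4.31% of all genes) were photoreceptor only. Without d6 replicate 2, 15 (25%, against 19.5%) were d6 only. Hes5, Jag1, Dll4 and Notch1 were bound in neither. Notch1 had a d6 replicate 2 summit at 74 bp, with the other 3 libraries at 2909, 3086 and 1406 bp.

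Among 68 neuronal and synaptic genes, 4 (5.88%) were photoreceptor only, 2 (2.94%) d6 only and 3 (4.41%) bound in both, against 0.841%, 3.28% and 4.46% of all genes. The photoreceptor-only genes were the glutamate receptor genes Gria1 and Gria3, the adhesion gene Cadm2 and the semaphorin receptor gene Plxna2. Gria1 had photoreceptor summits at 357 and 354 bp and d6 summits at 22045 and 222994 bp. The d6-only genes were the neurofilament gene Nefl and the guidance gene Ntn1. With no summit of the other cell type inside the gene, 1 gene stayed in each of these classes, since Gria1, Gria3 and Cadm2 held d6 summits and Ntn1 a photoreceptor summit. Without d6 replicate 1, 11 of the 68 (16.2%) were photoreceptor only, and without d6 replicate 2, 13 (19.1%) were d6 only, against 4.31% and 19.5% of all genes.

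**Figure D3:**
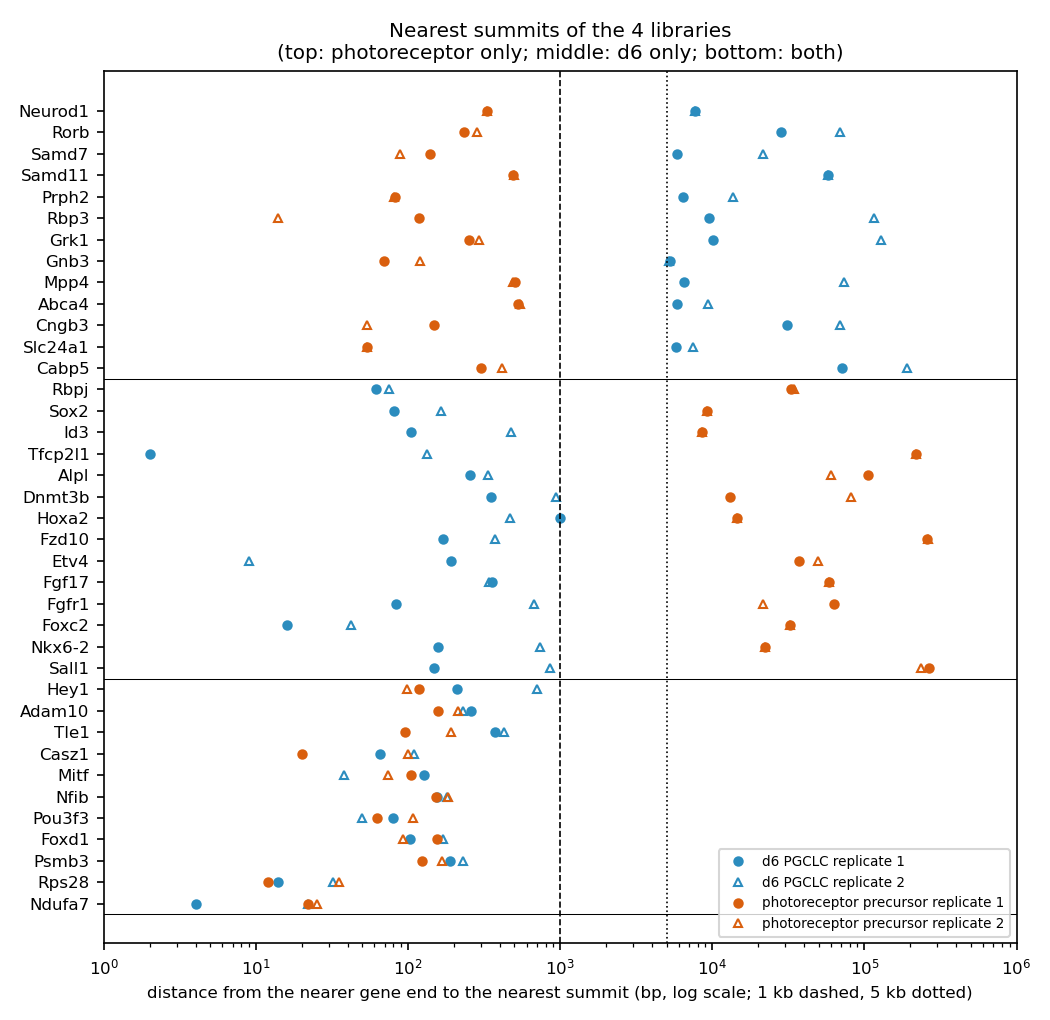
Distance in bp (log scale) from the nearer gene end to the nearest summit of each library, for 13 photoreceptor-only, 14 d6-only and 11 shared genes of the lists, with the 1 kb and 5 kb limits as vertical lines. The class fixes which side of the lines the points take; within it the replicates of a group lie close for genes such as Neurod1 and apart for genes such as Rbp3.

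Of 102 signalling genes of the WNT, BMP, hedgehog and FGF pathways, 27 (26.5%) were bound in d6 PGCLC and 16 (15.7%) in photoreceptor precursors, against 9.72% and 9.68% of all genes. Of these, 11 (10.8%, against 3.28%) were d6 only, 11 (10.8%, against 4.46%) bound in both and none photoreceptor only (against 0.841%). The other 5 photoreceptor-bound genes had a summit of d6 replicate 1 alone within 5 kb. The d6-only genes spanned receptors (Fzd7, Fzd10, Fgfr1, Ptch1), a ligand (Fgf17), an extracellular inhibitor (Sfrp1), and intracellular mediators and feedback inhibitors (Tcf7l1, Smad3, Smad7, Spry4, Etv4). Fzd10, a WNT receptor, had 3 d6-only regions within 5 kb, with d6 summits at 169 and 371 bp and photoreceptor summits at 259722 and 259761 bp. Etv4, an FGF-induced ETS factor, had d6 summits at 191 and 9 bp and photoreceptor summits at 36890 and 49562 bp. Fgfr1 had d6 summits at 83 and 674 bp and photoreceptor summits at 62707 and 21433 bp. Those bound in both were the ligands Wnt3, Fgf9 and Tgfb3, the receptors and co-receptors Fzd1 and Gas1, the BMP-family antagonist Fst, the mediators Smad4, Gli3 and Tcf7l2, and the target or feedback genes Sp5 and Spry2. Without d6 replicate 1, 12 genes were d6 only and 5 (4.9%, against 4.31% of all genes) photoreceptor only. Without d6 replicate 2, 40 (39.2%, against 19.5%) were d6 only. With no photoreceptor summit inside the gene 8 stayed d6 only, since Ptch1, Smad3 and Tcf7l1 held such summits.

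Among 138 other developmental transcription factors, 10 (7.25%) were d6 only, 10 (7.25%) bound in both and 1 (0.725%) photoreceptor only, against 3.28%, 4.46% and 0.841% of all genes. Without d6 replicate 2, 52 (37.7%, against 19.5%) were d6 only, and without d6 replicate 1, 8 (5.8%, against 4.31%) were photoreceptor only. The d6-only factors included Foxc2, a mesodermal forkhead factor, with d6 summits at 16 and 42 bp and photoreceptor summits at 32558 and 32637 bp. Nkx6-2, of the ventral neural tube, had d6 summits at 157 and 734 bp and photoreceptor summits at 22227 and 22217 bp, and 3 d6-only regions within 5 kb. Of 39 Hox genes, Hoxa2 and Hoxb2 were d6 only, and Hoxb7 and Hoxb8, which are neighbours and share their summits, were bound in both.

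Pluripotency and germ cell genes were d6-bound in 5 of 42 cases (11.9%) and epiblast and mesoderm genes in 4 of 36 (11.1%), against 9.72% of all genes. In photoreceptor precursors 2 (4.76%) and 1 (2.78%) were bound, against 9.68%. The first list was uneven: 4 of 18 pluripotency genes (22.2%) but 1 of 24 germ cell genes (4.17%) were d6-bound, the latter below the share of all genes. Of 42 pluripotency and germ cell genes, Tfcp2l1 and Alpl were d6 only and Klf5 was bound in both. Tfcp2l1, a naive pluripotency factor (chr1:118627923-118685168), had d6 summits at 2 and 133 bp and photoreceptor summits at 219434 and 219358 bp. Of 36 epiblast and mesoderm genes, Dnmt3b, the de novo DNA methyltransferase, was the single d6-only gene, with d6 summits at 349 and 940 bp and photoreceptor summits at 13030 and 80965 bp. The nearer of these lay inside the gene, and no epiblast or mesoderm gene was d6 only when such summits were barred. Without d6 replicate 2, 16 genes of each list were d6 only (38.1% and 44.4%, against 19.5% of all genes). The germ cell genes Prdm14, Nanos3, Tfap2c and Dppa3 each had a summit of d6 replicate 1 within 1 kb, at 53, 51, 298 and 284 bp. Replicate 2 had its nearest at 28459, 10229, 4547 and 35016 bp, so they were bound in neither. Summits of replicate 1 lay that near to many genes. With it as the only d6 library, 19.5% of all genes were d6 only and 8.17% bound in both.

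Of 411 housekeeping genes, 81 (19.7%) were bound in photoreceptor precursors and 52 (12.7%) in d6 PGCLC, against 9.68% and 9.72% of all genes. Of these, 46 (11.2%, against 4.38%) were photoreceptor-bound with a d6 summit within 5 kb, in 37 of them of d6 replicate 1 alone. The rest were spread over the classes, which hold 4.46% (both), 3.28% (d6 only) and 0.841% (photoreceptor only) of all genes, and d6-bound genes with a near photoreceptor summit. Cytosolic ribosomal protein genes gave 7 bound in both, 2 d6 only and 1 photoreceptor only (Rpl4) of 78, and proteasome genes 4, 1 and 0 of 31. Oxidative phosphorylation genes gave 6, 1 and 0 of 82, and translation factors and tRNA synthetases gave 2, 6 and 1 of 62. Mitochondrial ribosomal protein genes gave 3, 3 and 2 of 78, and RNA polymerase II and splicing genes 6, 1 and 3 of 80. Rps28 and Ndufa7, a ribosomal protein and a complex I subunit whose ends face each other on chromosome 17, had all 8 distances between 4 and 35 bp and share their summits. Snrnp70, a component of the U1 particle, had photoreceptor summits at 7 and 2 bp and d6 summits at 10835 and 91367 bp.

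Few of the neural photoreceptor-only genes had a summit in the other cell types, which the rule did not use, whereas each housekeeping gene of that class had one. These cell types were d2 PGCLC, E12.5 PGC, intestinal epithelium and plasmablasts, with 2 libraries each. Of the 17 neural photoreceptor-only genes, 14 (82.4%, 56.6 to 96.2) had no summit within 1 kb in any of these 8 libraries. Of the 7 housekeeping genes of the class none was without one (0.00 to 41.0%), and all 7 were bound in plasmablasts, against 1 of the 17. This was not particular to the class. All 28 housekeeping genes bound in both and all 14 d6-only ones were bound in plasmablasts, and none lacked a summit within 1 kb in the 8 libraries. Of all 184 photoreceptor-only genes, 54 (29.3%, 22.9 to 36.5) had no such summit. In plasmablasts 114 of them (62%) were bound, against 39.7% of all genes. The share of all genes without a summit in these 8 libraries is not given here. Prph2, Samd7, Neurod1, Rorb, Grk1, Abca4, Cngb3, Cabp5, Gria1, Gria3 and Plxna2 had none within 5 kb in the 8 libraries. Rbp3, Samd11 and Cadm2 had none within 1 kb. Among genes bound in both, 498 of the 976 (51%) had a summit within 1 kb in all 8 libraries and 1 had none.

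Regions and genes bound in d6 PGCLC only were often bound in other germline cells. Of the d6-only regions, 59.3% (58.3 to 60.4) were bound in d2 PGCLC and 38.9% (37.8 to 40.0) in E12.5 PGC, against 11.6% and 7.64% of all regions. Of the photoreceptor-only regions, 1.42% (1.09 to 1.82) were bound in each of these, counted separately. In intestinal epithelium the shares were 7.52% of d6-only and 2.31% of photoreceptor-only regions, against 3.79% of all regions. In plasmablasts they were 16.2% and 7.58%, against 9.7%. Of all regions, 81.8% were bound in neither d6 PGCLC nor photoreceptor precursors, since binding required both replicates. The shares of all regions thus come mostly from such regions, and the part of this in the differences was not tested. Of the regions bound in both, 65.8% (intestinal epithelium) to 86.9% (d2 PGCLC) were bound in each of the other cell types. Of the 184 photoreceptor-only genes, 0 were bound in d2 PGCLC (0.00 to 1.98%) and 2 in E12.5 PGC. The shares there were 49.4% and 28.6% of d6-only genes, and 8.41% and 5.79% of all genes. In plasmablasts, where 39.7% of all genes were bound, the photoreceptor-only and d6-only genes had near-equal shares of 62.0% and 61.8%. The photoreceptor-only class holds no gene or region with a d6 summit nearby, and the part of that choice in its low shares in germline cells was not tested.

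**Figure D4:**
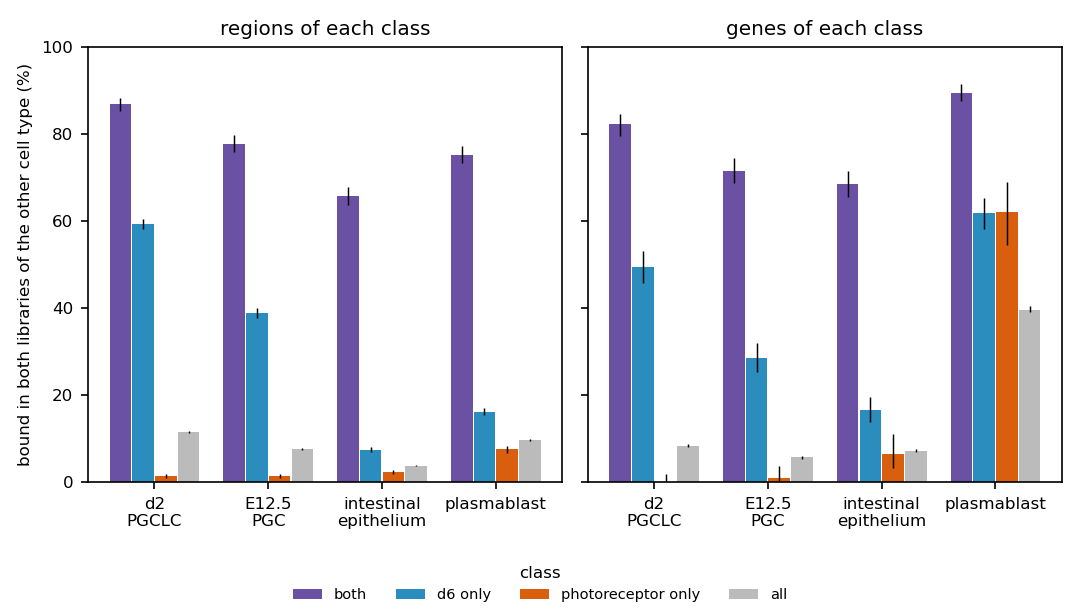
Share of the regions (left) and genes (right) of each class that were bound in both libraries of 4 other cell types (%, y axis), with 95% Clopper-Pearson intervals, beside all regions or genes. The d6-only bars stand above the photoreceptor-only bars in both kinds of germline cells, and for genes these bars are level in plasmablasts.

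Promoters grouped by the summits inside them differed in short motifs. Promoters of 300 bp were taken for the 17492 protein-coding genes with a RefSeq entry and grouped by the summits inside them, a grouping added after the lists were seen. Both libraries of both cell types had a summit in 180, d6 PGCLC alone in 165 and photoreceptor precursors alone in 278, and 14838 held none. These promoter groups carry the names of the gene classes but are different sets. The promoters of the d6-only genes Ablim1, Ripor1 and Wdtc1, for example, fell in the photoreceptor-only group. Matches were counted on either strand. GAAAG was present in 95% (90.7 to 97.7) of the shared promoters, 72.1% (64.6 to 78.8) of d6-only, 66.9% (61.0 to 72.4) of photoreceptor-only and 53.5% of promoters without a summit, and in 54.8% of all. The longer AGTGAAAG, which contains it, was found in 14.4%, 7.88%, 2.52% and 1.01%, and in 1.35% of all. The interferon-type repeat, GAAA repeated after a gap of 2 bases, which can overlap both, was found in 16.7%, 11.5%, 2.52% and 3.15%, and in 3.42% of all. A run of GAAAG, T and GAAAG, which holds both shorter forms, was found in 7 of the 180 shared promoters and in none of the 165 or 278, where 0 allows 2.21% and 1.32%. It was found in 0.114% of all promoters.

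TAATCC ran the other way. It was found in 12.9% (9.24 to 17.5) of photoreceptor-only promoters, 5.00% (2.31 to 9.28) of shared, 4.85% (2.12 to 9.33) of d6-only and 6.73% of promoters without a summit, and in 6.60% of all. The ETS-type motif CCGGAAGT was found in 12.6% of photoreceptor-only and 12.2% of shared promoters, against 3.64% of d6-only promoters and 5.19% of all. The E-box CACGTG and the NRF1 palindrome were searched as well, and their intervals overlapped between the 3 classes. Median GC content was 62.0% in shared, 59.3% in d6-only and 61.7% in photoreceptor-only promoters, and 54.3% in those without a summit, and its part in these shares was not tested. Grouped by the class of the gene, GAAAG was found in 65.5%, 55.2% and 60.7% of promoters of genes bound in both, d6 only and photoreceptor only. The share of all promoters, 54.8%, lay inside the d6-only and the photoreceptor-only interval. TAATCC was found in 5.75%, 5.61% and 13.8%. In that grouping the d6-only and photoreceptor-only intervals for GAAAG overlapped (50.9 to 59.4 and 52.2 to 68.7), and the share was lower in d6-only genes. By gene class, in the same order, AGTGAAAG was found in 4.35%, 1.99% and 2.07%, and the interferon-type repeat in 6.52%, 4.88% and 3.45%. The ETS-type motif was found in 9.34%, 5.79% and 7.59%. For these motifs too the d6-only and photoreceptor-only intervals overlapped, so their differences between these groups rest on the grouping by summits.

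Matches were also counted in the 100 bp around the summits, a window added after the lists were seen as well. GAAAG was found there in 77.8% (70.6 to 83.9) of 162 shared, 46.6% (38.4 to 55.0) of 148 d6-only and 29.6% (23.8 to 35.9) of 233 photoreceptor-only promoters, against 22.3% of all promoters at the median position. TAATCC was found in 0.617%, 2.03% and 9.01% (5.67 to 13.4), against 2.38%. AGTGAAAG was found in 13.0%, 4.73% and 0 of 233 (upper limit 1.57%), against 0.440%. In this window the intervals for the BLIMP1 core did not overlap between the 3 classes, whereas in the 300-bp promoters those of d6-only and photoreceptor-only promoters did. A match is a description of the letters and not of a bound site.

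**Figure D5:**
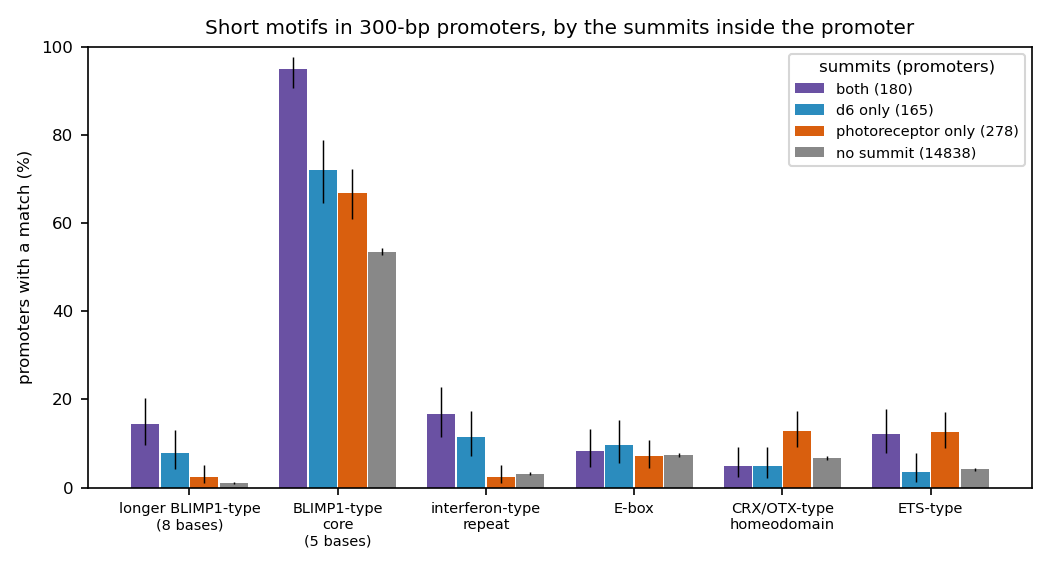
Share of 300-bp promoters with a match to each of 6 short motifs on either strand (%, y axis), by the summits inside the promoter, with 95% Clopper-Pearson intervals and the number of promoters in parentheses. The BLIMP1-type and interferon-type bars are highest for shared promoters, and the CRX/OTX-type bar is highest, at 12.9%, for photoreceptor-only promoters.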

How the data were processed

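BLIMP1 ChIP-seq summits of d6 PGCLC and photoreceptor precursors were analysed, and groups came from the labels. The lists were deposited by the authors as summit positions for each library separately (unit: other, chromosome and position), with no height or score. Per the submitters' processing notes MACS2 2.1, Bowtie 1.1.2, cutadapt 1.7.1 and Trim Galore 0.3.7 were used with build mm10. The calling threshold, control and read depth are not given in the sources used here. Positions are printed as listed and may be off by 1 bp. The input library was not analysed here.

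Chromosomes 1 to 19, X and Y were used. Genes and promoters came from RefSeq (GRCm38.p6, 21887 protein-coding genes), and all 1045 list genes matched by symbol. A gene end is either end of the gene, so a summit may lie at the 3' end. Where a gene had several promoters in a class, the first by position was used. The members and lists were chosen with earlier results of these data known. Genes were named by a rule: per class the 10 genes with the most regions of that class within 5 kb, then the smallest distance between replicates; the Notch genes of the classes; up to 6 genes per list and class; and 28 fixed genes. Other members were named after their values were seen. A few genes are not reported here. No set test was run. Class calling was tested on simulated data with widely spaced genes and no missed summits. That checks the code and not the calls on lists of unequal length. Python 3.11.15, numpy 2.4.6, pandas 2.3.3, scipy 1.17.1 and matplotlib 3.10.9 were used. Alternatives were other windows, merging distances and binding rules, and each library left out.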

Additional observations from a re-analysis of the deposited data

How the results depend on the processing

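Read depth is unknown. The long list of d6 replicate 1 limits the photoreceptor-only gene count, and the shorter one of d6 replicate 2 limits the counts of both and d6 only. Of the alternatives tried, 63 stayed near the reported value, 34 moved and 4 reversed; the cause was not tested where none is given. With the replicate number as a block, the difference of 9.3 percentage points in summits near gene ends had an exact p of 0.5, the smallest that 2 pairs allow. When 1 library was left out, the difference ranged from 8.08 to 10.5 points.

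Counting a summit in either library as bound, a looser rule by construction, gave 6034 regions in both, 74600 d6 only and 10979 photoreceptor only, and 2880, 4354 and 526 genes. Leaving out 1 library gave 2054 to 3230 regions in both, 8493 to 70672 d6 only and 4486 to 8909 photoreceptor only, and 1006 to 1788, 798 to 4273 and 189 to 944 genes. The highest values for both and d6 only came without d6 replicate 2. Those for photoreceptor only came without photoreceptor replicate 1 for regions and without d6 replicate 1 for genes. A 500 bp window gave 625 genes in both and 395 d6 only, and a 2 kb window 1083 d6 only. Asking also for no summit of the other cell type inside the gene left 121 photoreceptor-only genes. Grouping promoters by the summits inside them, added after seeing the data, raised the GAAAG share from 65.5% to 95% in both and from 55.2% to 72.1% in d6 only. In the 100 bp around the summits, a shorter window also added, GAAAG was found in 77.8% (both), 46.6% (d6 only) and 29.6% (photoreceptor only), and TAATCC in 0.617% and 2.03% of the first pair of classes.

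The photoreceptor-only minus d6-only share of neural and Notch genes, 3.94 points, reversed to -10.0 under the either-library rule and ranged from -11.8 (without d6 replicate 2) to 13.6 (without d6 replicate 1). It was 1.79 (95% interval ± 2.52) with no other summit within 10 kb and 1.43 (± 2.43) with none inside the gene, intervals that include 0. The balance of all genes is not 0, however. Their photoreceptor-only and d6-only shares were 0.571% and 2.96% in the 10 kb setting and 0.553% and 2.8% with none inside the gene. They were 2.4% and 19.9% under the either-library rule, 0.864% and 19.5% without d6 replicate 2, and 4.31% and 3.65% without d6 replicate 1. For other developmental genes the value of -7.02 became -3.93 at 500 bp, -12.6 at 2 kb and -41.9 under the either-library rule, and ranged from -40.4 to -5.06 when 1 library was left out. For housekeeping genes the value of -1.7 became -16.8 under the either-library rule, and ranged from -20.2 (without d6 replicate 2) to 7.06 (without d6 replicate 1), with 0.487 without photoreceptor replicate 1.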

Other observations

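Regions were also assigned to the nearest protein-coding gene, at any distance. Photoreceptor and bipolar effectors were nearest to 42 photoreceptor-only regions (0.98%, 0.707 to 1.32), 21 d6-only regions (0.256%, 0.158 to 0.391) and 0.281% of all regions. The 42 regions belonged to 30 of the 59 genes. Neuronal and synaptic genes were nearest to 2.17% of photoreceptor-only, 0.95% of d6-only and 1.14% of all regions. Pluripotency and germ cell genes were nearest to 38 d6-only regions (0.463%), at 19 of 42 genes, and to 3 photoreceptor-only regions, all at 1 gene. Notch genes were nearest to 0.694% of d6-only, 0.63% of photoreceptor-only and 0.731% of all regions. Long genes and gene-poor stretches collect more regions, which was not adjusted for.

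The genes with the most regions were chosen after their values were seen. Auts2, a long neurodevelopmental gene, was nearest to 10 d6-only and 11 photoreceptor-only regions. Sox2 was nearest to 9 d6-only regions, and Mycn, a proto-oncogene of neural progenitors, to 10 photoreceptor-only regions.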
